A study of Mus musculus with 4 samples.

Results

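This account covers the comparison of colon crypts after induction of β-catenin with untreated crypts, described across all genes that could be measured. Each side was 1 array. The Dox plus array held colonic crypt cells of male mice with a doxycycline-inducible β-catenin gene that had received doxycycline at 2.0 mg/ml in their drinking water for 5 days. The Dox minus array held crypt cells of male mice with the same inducible gene and no doxycycline. The drug and the induction therefore cannot be told apart. The sources used here give no promoter or driver of the transgene, no strain, no age and no number of mice behind each array, and no sort of the crypt cells is named. A gene was a member when its probe sets carried a single gene symbol and at least 1 of the 2 arrays read 5 or more on the log2 scale. These were 9546 of 18194 named genes, on 2 of the 4 arrays of the series. The other 2 arrays came from male H2B-GFP mice, which carry a tetracycline-responsive histone H2B-GFP gene. These mice had doxycycline for 7 days and then none for 2 days, and crypt cells that had kept GFP (GFP high, non-proliferating) or diluted it (GFP low, proliferating) were sorted. Both arrays thus also follow doxycycline, without induced β-catenin. They enter no difference and are quoted only as levels.

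The epithelium of the colon is renewed from stem cells at the base of its crypts. Wnt ligands from the surrounding tissue keep β-catenin from being degraded, and β-catenin then enters the nucleus, binds TCF factors and switches on genes of the stem cell state and of growth, with Myc among the best known. As cells move up the crypt the signal fades, and they become absorptive colonocytes, mucus-making goblet cells or hormone-making enteroendocrine cells. Loss of control over β-catenin is the usual first step of colorectal tumours.

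All values below are log2 levels or log2 differences, Dox plus minus Dox minus, so that 1 is a 2-fold difference. A level under 5 was set to 5 before a difference was taken, and such a difference is a lower bound on the true size, written "at least" or "or beyond". With 1 array per group there was no test, no replicate error and no p-value, and precision is limited by having so few arrays. Counts of genes past 2-fold describe these 2 arrays only. Among genes with several measured probe sets, the 2 strongest of the same gene disagreed by a median of 0.32, which gives a scale for the smaller differences. The 90th percentile of this disagreement was 0.91, close to the 2-fold mark.

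The values of all 45101 probe sets correlated at Pearson r = 0.985 between the arrays, and 64.8% of the measured genes differed by less than 0.5. At least 2-fold higher in Dox plus were 664 genes, 6.96% of the 9546, and at least 2-fold lower were 509 genes, 5.33%. The decreases were the larger ones. At 4-fold there were 86 higher and 132 lower genes, at 8-fold 13 and 49, and at 16-fold 3 and 19. Of the called genes, 82 of the higher and 65 of the lower had 1 array under 5 and so have bounds only. Above 0 were 5237 of the 9546 measured genes, and below 0 were 4309. Counts of list members given below are to be read beside these and beside the shares called. The median over all measured genes was 0.06. Quantile normalization of the pair moved it to -0.01 and turned the balance to 535 higher and 590 lower. Genes were also divided by their level on the higher of the 2 arrays. Below 6 no gene could be called, since levels under 5 were set to 5. The share called higher was largest between 6 and 8. There 13.1% of genes were called higher and 7.81% lower, and between 12 and 14 these shares were 2.23% and 6.17%.

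**Figure D1:**
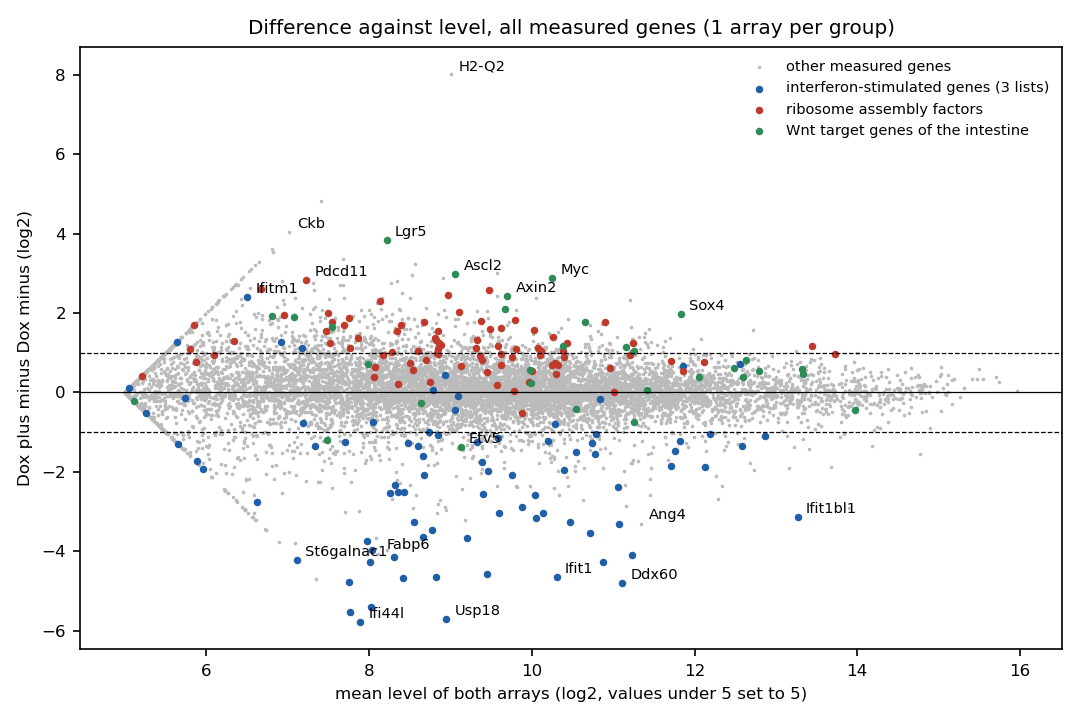
Difference between the arrays (vertical axis, log2, Dox plus minus Dox minus) against the mean level of both arrays (horizontal axis, log2, values under 5 set to 5), with 1 point per measured gene. Blue points are interferon-stimulated genes of 3 lists, red points ribosome assembly factors and green points Wnt target genes; dashed lines mark 2-fold. The blue points lie mostly below the lower dashed line, down to -5.77 for Ifi44l, and the red points lie almost all above 0.

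Colonic epithelium was recognisable on both arrays. The carbonic anhydrase Car1, typical of the colon, read 15.12 in Dox plus and differed by 0.12. The surface keratin Krt20 read 14.33 and 14.05, the intestinal transcription factor Cdx2 11.75 and 12.33, and the epithelial adhesion molecule Epcam 14.72 and 14.86. Cells of other tissues left little signal. Of 18 fibroblast genes on the array only Vim (8.43 and 6.64) and Pdgfrb (5.32 and 4.73) were measured, of 12 endothelial genes only Egfl7 (5.03 and 4.94), of 14 T cell genes 4, of 9 B and plasma cell genes only Jchain (7.53 and 4.32), and of 4 red blood cell genes 0. Myeloid genes were measured for 8 of 19, with the leukocyte gene Laptm5 (7.58 and 6.05) the one past 2-fold, and the pan-leukocyte gene Ptprc read 7.19 and 6.58. The summed linear levels were 1966 in Dox minus and 1798 in Dox plus for the myeloid list, and 604 and 553 for the T cell list.

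A few genes listed for the distal small intestine and pancreas were also present, and most of them were higher in Dox minus. The ileal bile acid binding protein Fabp6 read 10.14 in Dox minus and 6.08 in Dox plus, Apoa1 9.73 and 7.94, and the ileal bile acid transporter Slc10a2 9.03 and 7.63. Among 9 measured small intestinal genes 4 were called lower and 1, the peptidase Enpep (1.34), higher, with a median of -0.91. Of 13 pancreatic acinar genes on the array 4 were measured. The colipase Clps read 9.69 in Dox minus and 4.95 in Dox plus, Spink1 13.57 and 11.79, and Cela1 12.17 and 10.81. The other measured one, Zg16, is also in the goblet cell list and differed by -0.29. The median level of the 4 was 13.72 in GFP high, 13.67 in GFP low, 12.87 in Dox minus and 11.30 in Dox plus. For the 9 small intestinal genes it was 5.00, 5.00, 9.73 and 7.94. Whether these genes mark cells of other tissues here, and the part of such cells in other differences, was not tested. The list of genes known to differ between inbred strains had 5 members, and 2 of these were past 2-fold. Ifi202b, a DNA-binding interferon-inducible protein, read 10.72 and 5.32, and the secreted phospholipase Pla2g2a, which some laboratory strains lack, read 3.10 and 7.11. Nnt (10.78 and 10.82), Wdfy1 (11.21 and 11.10) and Glo1 (13.94 and 13.02) were within 2-fold. The sources used here do not say whether the mice of both arrays shared a genetic background, and its part in the other differences was not tested.

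The first question the design poses is how the Wnt pathway responds to added β-catenin. Ctnnb1, the gene of β-catenin itself, read 14.16 in Dox minus and 14.05 in Dox plus, with probe set differences from -0.11 to 0.66, and the sources used here do not say whether these probes report the transgene. The components that carry the signal were largely level. Of 11 measured ligands, receptors and co-receptors only Ryk, a Wnt-binding receptor kinase, was past 2-fold (1.17), and of 30 members of the destruction complex and the nuclear machinery 26 were within 2-fold. Apc (-0.10), Axin1 (-0.11) and Gsk3b (0.15), the core of the complex that marks β-catenin for degradation, lay near 0.

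The 4 exceptions were Bcl9, Tle3, Dvl2 and Tcf7l1. Bcl9, which links β-catenin to the transcription machinery, read 7.11 in Dox minus and 9.02 in Dox plus. The corepressor Tle3 read 8.68 and 10.12, and Dvl2, a cytoplasmic relay of the Wnt receptor, 5.70 and 6.78. The repressor-type TCF factor Tcf7l1 read 9.78 and 8.74, and Tcf7l2, the main TCF factor of the intestine, 9.53 and 8.59, which is within 2-fold at -0.93. Tle4, another corepressor, differed by -0.79.

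Target genes were called more often than the machinery, in 15 of 31 against 4 of 30. Of 31 measured Wnt target genes of the intestine 24 were above 0, 13 were at least 2-fold higher and 2 at least 2-fold lower, and the median was 0.60 against 0.06 over all genes. The receptor Lgr5 read 6.29 in Dox minus and 10.14 in Dox plus, 14.3-fold apart. The stem cell factor Ascl2 read 7.57 and 10.55, Myc 8.81 and 11.69, and the scaffold and feedback inhibitor Axin2 8.48 and 10.91. Each of these was also above both GFP arrays in Dox plus, where Lgr5 read 4.14 and 6.25 and Axin2 6.91 and 8.23 in GFP high and GFP low. A second tier lay between 2-fold and 4-fold. The transcription factor Sox4 read 10.85 and 12.81, although a second probe set gave only 0.44. The matrix protease Mmp7 read 5.85 and 7.77, and the urokinase receptor Plaur 6.13 and 8.02. Others long counted as targets hardly differed, among them Cd44 (0.54), Cldn2 (0.05), Vegfa (-0.27) and Birc5 (-0.41). The lower pair were Etv5 (9.81 and 8.44, with a second probe set at 0.29), an ETS factor that also answers to growth factor signalling, and the BMP pseudoreceptor Bambi (8.09 and 6.89).

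Negative feedback was uneven. In the list of feedback inhibitors and antagonists 7 genes were measured. Axin2 and the ubiquitin ligase Rnf43 (8.62 and 10.72), which removes Frizzled receptors from the surface, were past 2-fold. Znrf3, a relative of Rnf43, differed by 0.70, Sfrp1 by -0.15 and Shisa2 by 0.02. The list also holds the small GTPase regulator Tiam1 (0.32) and the receptor Lgr4 (0.13), which are not Wnt antagonists.

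Stem cell markers had a median of 0.74 over 28 measured genes, with 13 at least 2-fold higher and 0 lower. Several of them are Wnt targets as well and appear in both counts. Beyond those already given, Phlda1 read 10.05 in Dox minus and 12.37 in Dox plus, the matrix protein Smoc2 7.25 and 8.88, Cdca7 9.77 and 11.54, and Hopx 9.75 and 10.84. The sodium channel subunit Scn2b was under 5 in Dox minus (3.48) and on both GFP arrays, and read 8.05 in Dox plus. Markers attributed to other stem cell pools, Bmi1 (-0.08) and Lrig1 (0.33), were nearly level, and Olfm4 (-0.91), Aqp4 (-0.63) and Prom1 (-0.40) were below 0 and within 2-fold.

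**Figure D2:**
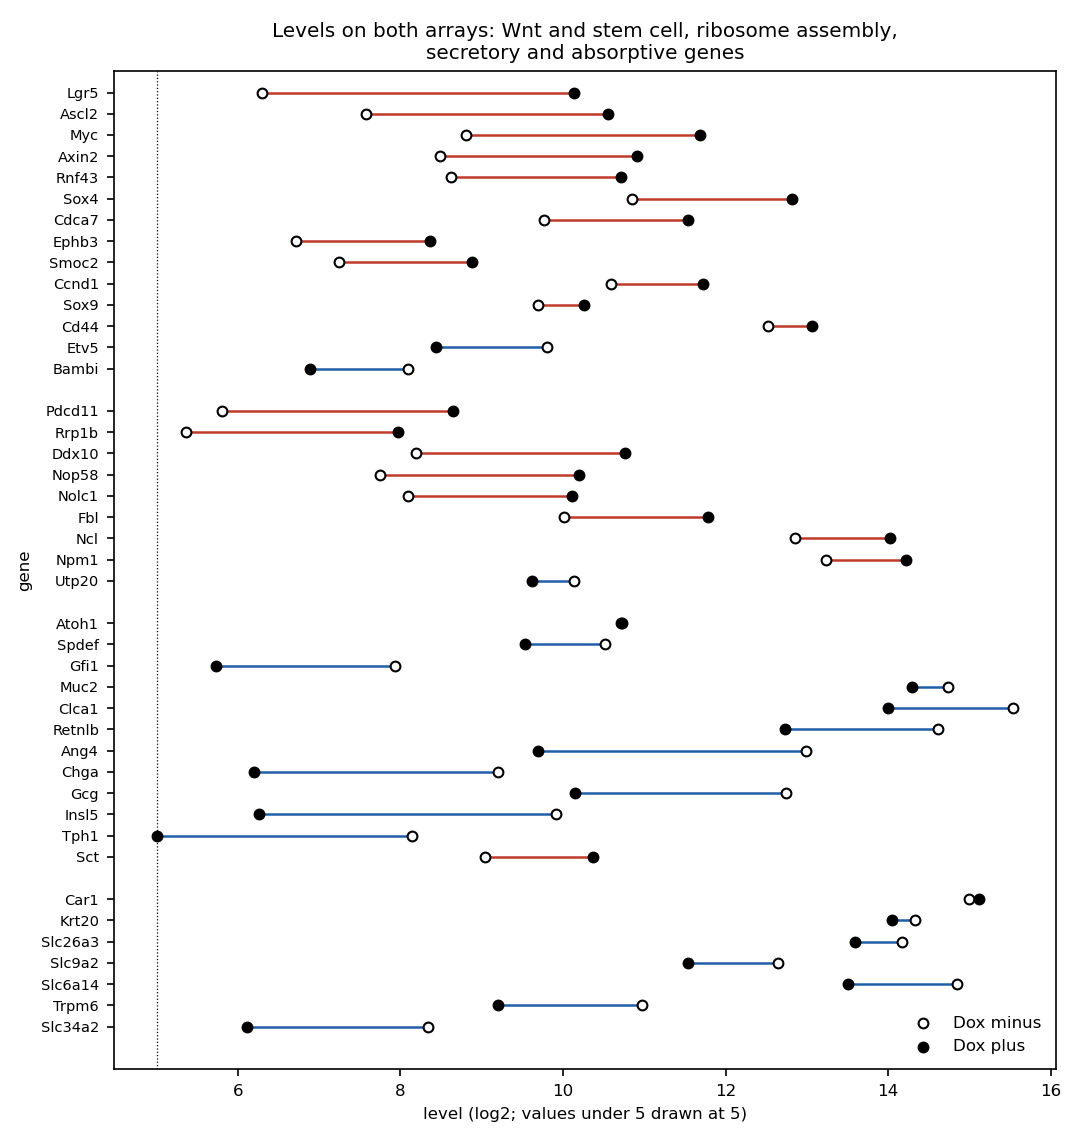
Levels (horizontal axis, log2, values under 5 drawn at 5) of selected genes on the Dox minus array (open circles) and the Dox plus array (filled circles), 1 gene per line, with red lines for higher and blue lines for lower in Dox plus. From top to bottom the blocks are Wnt and stem cell genes, ribosome assembly factors, secretory lineage genes and absorptive genes. Lgr5 spans from 6.29 to 10.14, Atoh1 reads 10.72 on both arrays, and Chga reads 9.20 in Dox minus and 6.20 in Dox plus.

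Eph receptors and ephrins, which sort cells along the crypt axis downstream of Wnt, split by member. The receptor Epha4 read 5.93 and 8.69 (its second probe set differed by 1.54), Ephb3, the receptor of the crypt base, 6.72 and 8.37, and the ligands Efna4 6.04 and 8.62 and Efna3 5.93 and 7.41. Of the B-class ligands, which mark cells higher in the crypt, Efnb2 read 11.23 and 9.60 and was called lower, and Efnb1 read 10.44 and 9.44, just within 2-fold. The Myc network had a median of 0.13 over 16 genes, with 5 called higher and 1 lower. Mycl read 6.34 and 9.04, with probe sets from 0.66 to 2.70, and Mxd1, an antagonist of Myc that accompanies differentiation, 12.54 and 11.27. Mxd4 (-0.74), Mlxip (-0.82) and Max (-0.19), the shared partner, were within 2-fold, and the repressor Mnt (6.37 and 7.75), a Myc antagonist too, was higher. The helicases Ruvbl1 (1.51) and Ruvbl2 (1.17), cofactors of Myc, were past 2-fold.

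A broad increase was found in the machinery that builds ribosomes. Of 84 measured nucleolar assembly factors 83 were above 0, 46 were at least 2-fold higher and 0 lower, with a median of 1.07. The assembly factor Pdcd11 read 5.81 in Dox minus and 8.64 in Dox plus, Rrp1b 5.37 and 7.97, and the RNA helicase Ddx10 8.19 and 10.77. Core proteins of the small nucleolar particles that modify ribosomal RNA followed, with Nop58 at 7.74 and 10.19, Nop56 at 8.88 and 10.70, and the methyltransferase Fbl at 10.01 and 11.78. Even the very abundant nucleolar proteins Ncl (12.86 and 14.02) and Npm1 (13.24 and 14.21) were about 2-fold apart. The single member below 0 was Utp20 (-0.51), and Dcaf13 differed by less than 0.01. Rrp1b, Nolc1 and Ddx10 have second probe sets with different sizes in the same direction, for Rrp1b 1.04.

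The genes that transcribe and host ribosomal and nucleolar RNA went the same way. Of 33 measured genes of the RNA polymerase I and III machinery 29 were above 0, 6 were called higher and 0 lower, with a median of 0.41. The polymerase I subunits Polr1e (6.97 and 8.90), Polr1a (5.93 and 7.64) and Polr1b (7.01 and 8.13) and the polymerase III subunit Polr3e (7.57 and 8.80) were among the 6. Polr3g, the subunit of RNA polymerase III found in pluripotent cells, led the list: it was under 5 in Dox minus (4.11) and read 7.49 in Dox plus, while its everyday counterpart Polr3gl differed by 0.61. Of 12 measured host genes of small nucleolar RNAs 11 were above 0 and 6 past 2-fold, with a median of 1.05. Snhg5 read 7.47 and 10.35, Snhg12 4.57 and 7.90, and Gas5 10.68 and 12.07.

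Ribosomal proteins themselves differed by less. The 44 cytosolic ribosomal protein genes had a median of 0.42, with 42 above 0. At least 2-fold higher were 3, or 6.82%, close to the 6.96% over all genes. Most of the 44 lie near the top of the scale, where Rplp0 read 15.02 and 15.35. Mitochondrial ribosomal proteins had a median of 0.44, with 64 of 74 above 0. Of 38 aminoacyl-tRNA synthetase genes 35 were above 0 and 11 past 2-fold (median 0.65), and both cytosolic members such as Yars (6.74 and 7.84) and mitochondrial members such as Ears2 (6.12 and 7.49) were among them. Initiation factors had a median of 0.57, led by Eif2b3 (6.88 and 8.49), part of the exchange factor that recycles eIF2, and by the translation repressor Eif4ebp1 (1.89). All 17 chaperonin and prefoldin genes were above 0 with a median of 0.76, although only Pfdn2 (1.05) passed 2-fold. Taken as 1 group without repeats, the 7 lists of ribosome building and translation held 320 measured genes, of which 294 were above 0, 77 at least 2-fold higher and 0 at least 2-fold lower.

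Several lists of anabolic metabolism had medians above 0. Serine and one-carbon enzymes, which feed nucleotide synthesis, had a median of 0.74 with 7 of 20 past 2-fold. Psat1 of the serine pathway read 6.51 in Dox minus and 8.89 in Dox plus, Phgdh 7.95 and 9.71, and the mitochondrial folate enzymes Mthfd1l 6.12 and 8.24 and Mthfd2 6.45 and 8.34. In nucleotide synthesis the pyrimidine enzymes Cad (7.63 and 9.48) and Ctps (7.35 and 9.15) and the purine enzymes Atic (9.86 and 11.57) and Ppat (7.07 and 8.46) were higher. Xdh, which degrades purines, was lower (8.99 and 7.29). Polyamine genes did not share this, with a median of -0.06, 8 of 17 above 0, 3 called higher and 1 lower. Spermidine synthase Srm read 8.40 and 10.18, the rate-limiting enzyme Odc1, a classical Myc target, 13.68 and 13.74, and the arginase Arg2 10.51 and 9.43.

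Lipid synthesis was higher in part. Cholesterol and fatty acid genes had a median of 0.48 with 7 of 37 past 2-fold, among them the desaturase Fads1 (7.31 and 9.69), Mvd (6.87 and 8.94) and the regulator Srebf2 (8.94 and 10.09). Hmgcs1 differed by 0.02 and Dhcr7 by -0.05. Fatty acid oxidation genes stood at a median of 0.09, with 2 of 34 called higher and 1 lower. Acot1 (1.97) and Acaa1b (1.25) were higher, and the carnitine transferase Cpt1a was lower (13.92 and 12.74). Of 70 respiratory chain genes 0 were past 2-fold in either direction, and none of 37 proteasome genes were. Glycolysis genes had a median of 0.26, with Aldoc (7.04 and 9.02), Pdk1 (1.42) and the oxygen sensor Egln3 (7.54 and 9.43) higher and the glucose transporter Slc2a1 at -0.88. The creatine kinase Ckb was under 5 in Dox minus (3.78) and read 9.03 in Dox plus, against 4.25 and 6.59 in GFP high and GFP low.

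**Figure D3:**
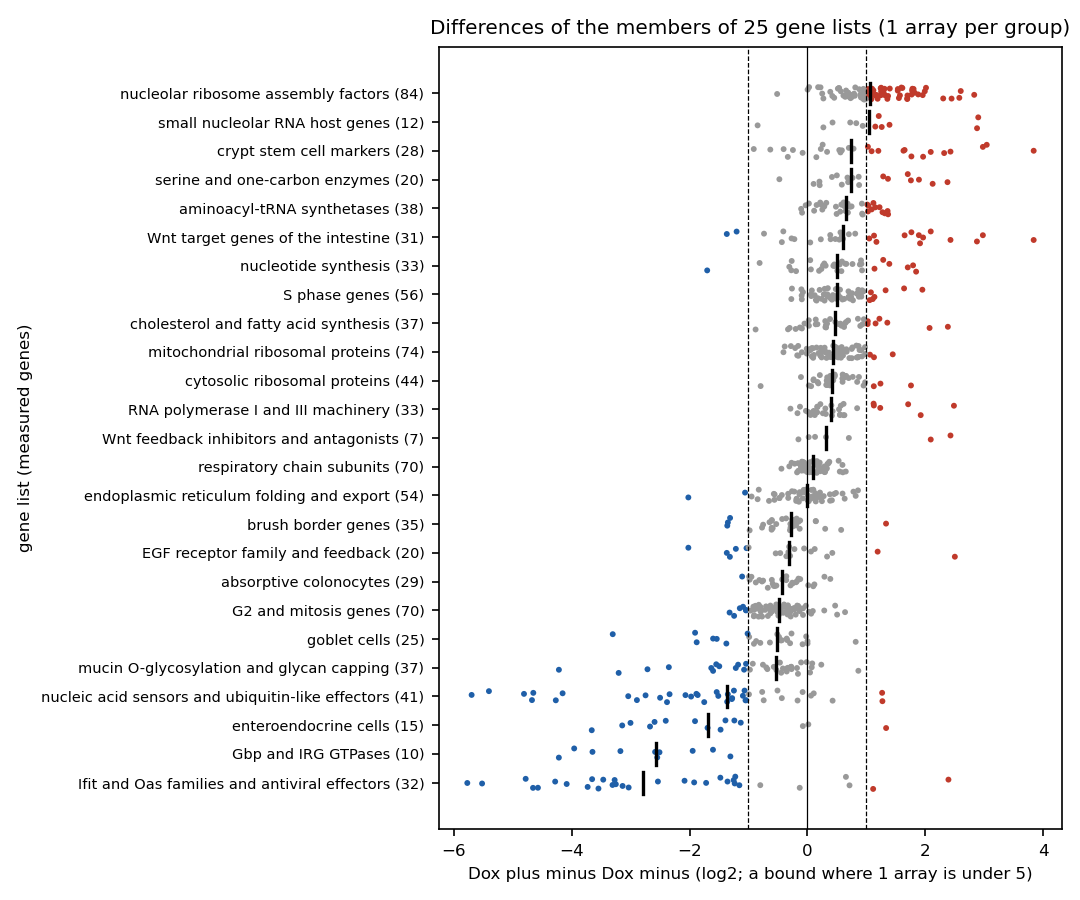
Differences (horizontal axis, log2, Dox plus minus Dox minus) of the measured members of 25 gene lists (vertical axis, number of measured genes in brackets), 1 point per gene, ordered by the list median (black bar). Red points are at least 2-fold higher, blue points at least 2-fold lower, and vertical jitter carries no meaning. List medians run from -2.79 for the Ifit and Oas list to 1.07 for ribosome assembly.

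Cell cycle genes did not move together. The lists that hold genes for entry into the cycle had medians near 0. E2F and DP factors had a median of -0.05, with 0 of 14 called. D and E cyclins, kinases and the RB family had a median of 0.05, with 14 of 26 above 0, against 5237 of 9546 over all genes. Of the 26, 6 were called higher (23.1%, against 6.96% over all genes) and 0 lower. That list also holds other cycle genes, such as Ccnb2 (-0.83) and Wee1 (1.45). The cyclins Ccnd1 (10.59 and 11.72) and Ccne1 (6.05 and 7.70) and the kinases Cdk4 (10.04 and 11.58) and Cdk6 (9.72 and 10.75) were among the 6. Ccnd2 was past 2-fold on its strongest probe set (1.05) and at -0.47 on another. Of 56 S phase genes 50 were above 0 and 7 past 2-fold, with a median of 0.50. The replication licensing factors Cdc6 (6.10 and 8.05) and Cdt1 (8.60 and 9.71), and Timeless (5.63 and 6.96), a guardian of the replication fork, were among these 7. The sliding clamp Pcna differed by 0.63 (12.55 and 13.18).

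Genes of G2 and mitosis lay on the other side. Of 70 measured 63 were below 0, with a median of -0.48. At least 2-fold lower were 6, or 8.57% against 5.33% over all genes, and 0 were at least 2-fold higher. Ckap2 read 7.68 in Dox minus and 6.36 in Dox plus, the kinases Aurkb 8.62 and 7.38 and Plk1 8.81 and 7.77, and the spindle protein Nusap1 10.11 and 8.96. The proliferation marker Mki67 read 11.47 and 10.80. Every one of these was within 3-fold, and the 7 members above 0 were led by Ube2s (0.64), Cenph (0.51) and Cenpk (0.47). The inhibitors Cdkn2b (11.35 and 10.26) and Cdkn3 (7.86 and 6.72) were lower, and Cdkn1a differed by -0.27. DNA repair genes had a median of 0.41, with Msh6 (8.90 and 10.09) of mismatch repair, the checkpoint kinase Atr (7.52 and 8.63), Exo1 (6.23 and 7.27) and Brca2 (4.02 and 6.09) past 2-fold, the last as a bound of at least 1.09. Targets of p53 stood at a median of -0.07.

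**Figure D4:**
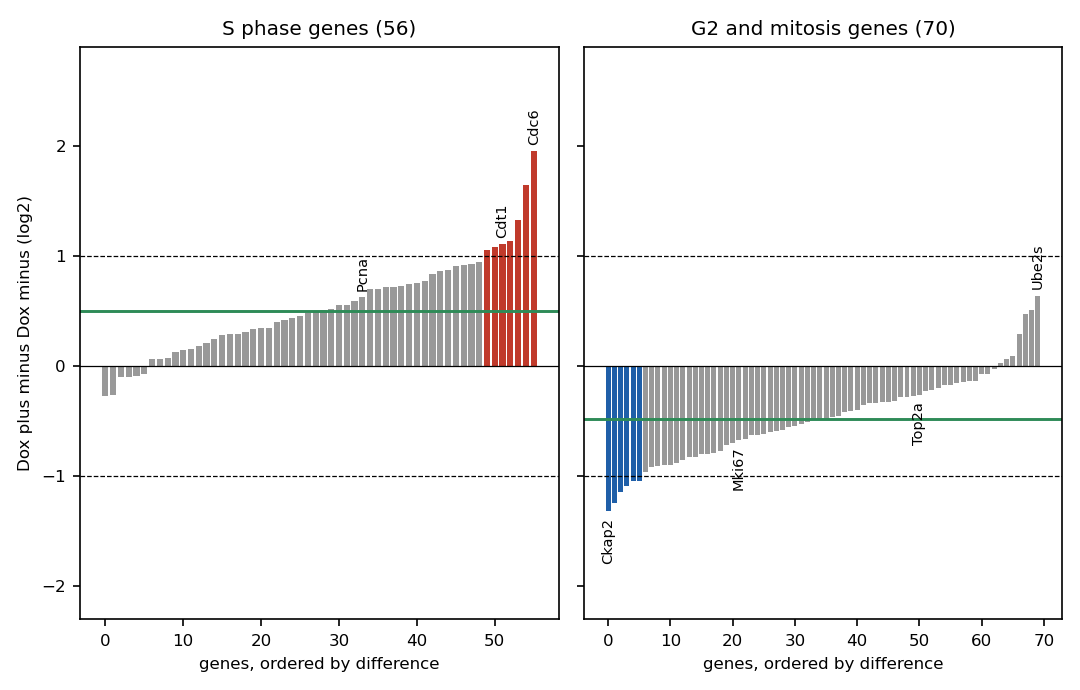
Differences (vertical axis, log2, Dox plus minus Dox minus) of the 56 measured S phase genes and the 70 measured G2 and mitosis genes, 1 bar per gene in order of size, with the list median as a green line and 2-fold as dashed lines. S phase genes have a median of 0.50 and reach 1.95 for Cdc6, and G2 and mitosis genes have a median of -0.48 and reach -1.32 for Ckap2.

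The largest group of strong decreases was made of interferon-stimulated genes. Interferons signal through STAT and IRF factors, which bind a response element in the promoters of antiviral genes, and a low tonic activity of this system is usual in gut epithelium. Of 32 measured Ifit, Oas and other antiviral effector genes 26 were called lower and 2 higher, and the median was -2.79. All 10 measured Gbp and IRG genes, GTPases that attack intracellular microbes, were called lower, and their median was -2.57. Of 41 nucleic acid sensors and ubiquitin-like effectors 29 were lower and 2 higher, with a median of -1.36. Together with receptors, STATs and IRFs the 4 lists held 106 measured genes, of which 68 were called lower. They made up 28 of the 49 genes with an 8-fold decrease and 15 of the 19 with a 16-fold decrease.

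Usp18, which removes the ubiquitin-like ISG15 from proteins and damps the receptor, read 11.80 in Dox minus and 6.10 in Dox plus, 52.0-fold apart. Ifit1, a sensor of foreign RNA caps, read 12.63 and 7.98, and the helicase-like Ddx60 13.52 and 8.71. The antiviral radical enzyme Rsad2 read 10.52 and 4.96, the ubiquitin ligase Herc6 11.15 and 6.49, and Trim30a 10.76 and 6.09. These are levels of well expressed genes in Dox minus, with Ifit1bl1 at 14.84 and Oasl2 at 13.28. Receptors and their kinases were not called. Ifnar1 (0.41), Ifngr1 (-0.03), Ifnlr1 (-0.25), Jak1 (-0.23) and Tyk2 (-0.40) were within 2-fold, while the factors that interferon itself induces, Irf7 (11.62 and 9.04), Stat2 (10.36 and 7.94) and Irf9 (10.86 and 9.83), were lower.

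The members on the other side were few. Ifitm1, one of a family of membrane proteins that block virus entry, read 5.31 and 7.70, and its relatives Ifitm2 and Ifitm3 differed by 0.65 and 0.72. The cytidine deaminase Apobec3 read 6.61 and 7.73. Trim12a was under 5 in Dox minus (3.19) and read 6.27 in Dox plus. Trim34a differed by 1.27 on its strongest probe set and by -1.51 on another, so its direction was not settled.

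Both GFP arrays allow these levels to be placed, although they came from another mouse line and the sources used here do not say which arrays were normalized together. The pairs also differed in their array controls. The 3 probe sets for 18S ribosomal RNA read between 12.39 and 13.59 on the GFP arrays and between 2.11 and 3.83 on the Dox arrays, so levels are set side by side across the pairs with no comparison tested. Among the 10 Gbp and IRG genes the median level was 8.96 in GFP high, 8.54 in GFP low, 10.25 in Dox minus and 7.48 in Dox plus. Dox minus was the highest of the 4 arrays by 2-fold or more for 16 of the 32 Ifit and Oas genes, and Dox plus the lowest by 2-fold or more for 9. For the 10 Gbp and IRG genes these counts were 8 and 5. Rsad2 read 9.98 and 9.32 on the GFP arrays, near Dox minus, whereas Usp18 read 6.90 and 7.31, nearer to Dox plus. The myeloid and T cell lists given above had close sums on both arrays, whereas the B and plasma cell list summed to 276 without and 97.6 with doxycycline. The part of leukocytes in these differences was not tested.

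**Figure D5:**
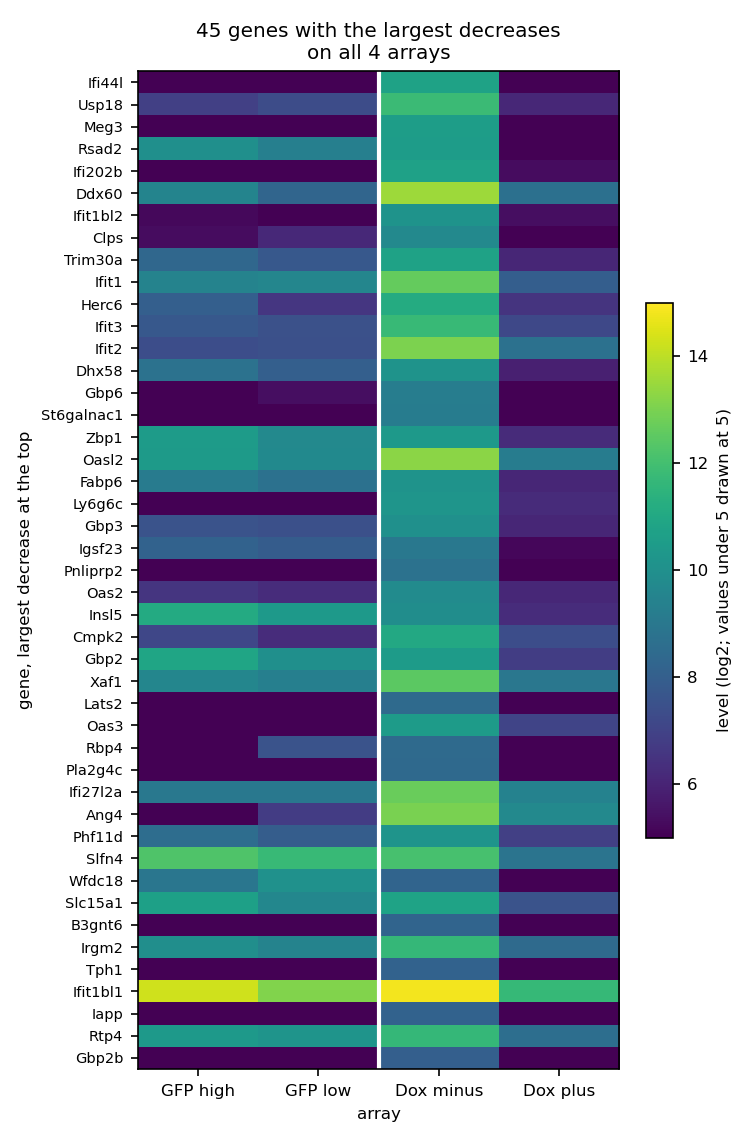
Levels (colour, log2, values under 5 drawn at 5) on all 4 arrays (columns) of the genes named for the largest decreases (rows, largest at the top). Dox minus is the brightest column for all rows but Gbp2, Insl5, Slfn4, Wfdc18 and Zbp1, and Meg3, St6galnac1, B3gnt6 and Ifi44l are dark on the other 3 arrays.

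The promoters of these genes were read from RefSeq (GRCm38.p6), which gave a stretch from 250 bases before to 50 after the start for 7818 of the measured genes. The core of the interferon-stimulated response element, TTCNNTTTC on either strand, where N is any base, was present in 8.26% of them. It was found in 34 of 67 matched promoters of the Ifit and Oas, Gbp and IRG and sensor lists, or 50.7%. Within these lists it was found in 26 of 52 lower genes and 5 of 11 genes within 2-fold, and 3 of the 4 higher genes held it too. Over all 392 matched genes called lower it was 14.5%, over the 340 of them outside these 3 lists 9.12%, and over 560 genes called higher 7.86%. Lists with medians above 0 held the core too, in 29.2% of DNA repair, 19.4% of proteasome and 17.9% of cytosolic ribosomal protein promoters. A match is a description of letters, not of a bound site. Printed here are 4 of the lower genes to show where the element lies, with matches in capitals and the rest in lower case, 5′ to 3′ along the gene's own strand and all before the start.
Ifit1: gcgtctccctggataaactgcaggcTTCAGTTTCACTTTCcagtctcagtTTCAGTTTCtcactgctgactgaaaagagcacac
Ddx60: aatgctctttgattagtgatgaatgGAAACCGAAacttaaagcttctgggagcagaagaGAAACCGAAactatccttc
Rsad2: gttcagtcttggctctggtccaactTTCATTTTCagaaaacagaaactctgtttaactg
Trim30a: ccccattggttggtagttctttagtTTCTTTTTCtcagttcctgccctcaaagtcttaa
The Ifit1 stretch, chr19:34640755-34640838, holds overlapping and repeated copies. The same bases lie before the start of its neighbour Ifit1bl2 on the opposite strand, which read 10.14 in Dox minus and 5.36 in Dox plus. Ddx60 (chr8:61928009-61928086, plus strand) holds a pair of copies in reverse orientation, and Rsad2 (chr12:26456538-26456596, minus strand) and Trim30a (chr7:104465195-104465253, minus strand) hold 1 each.

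Other motifs were read in the same promoters. The E-box CACGTG, the letters that Myc and Max bind, was present in 12.2% of measured promoters, 16.1% of those of genes called higher and 8.42% of those called lower. Of genes at least 4-fold higher 5 of 71 held the E-box, or 7.04%, and of those at least 4-fold lower 8 of 108, or 7.41%. Among the ribosome assembly factors 17 of 69 matched promoters held it, or 24.6%. Within that list it was found in 18.6% of the 43 genes called higher and 34.6% of the 26 within 2-fold. Genes of ion, water and acid-base transport, with a median of -0.24, held it in 10 of 37 promoters, or 27.0%. Printed are the 4 assembly factors with an E-box before the start that differed most, again with the match in capitals.
Aatf: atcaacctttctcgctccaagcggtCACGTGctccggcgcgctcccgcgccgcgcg
Rpf2: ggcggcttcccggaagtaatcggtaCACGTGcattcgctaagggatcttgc
Utp18: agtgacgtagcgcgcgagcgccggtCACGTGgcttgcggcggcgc
Dhx33: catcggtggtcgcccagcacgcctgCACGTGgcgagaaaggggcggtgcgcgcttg
They lie at chr11:84513675-84513730 (Aatf), chr10:40246980-40247030 (Rpf2), chr11:93885767-93885811 (Utp18) and chr11:71004437-71004492 (Dhx33), all on the minus strand. The genes read 6.50 and 8.50, 8.48 and 10.28, 8.12 and 9.49, and 7.19 and 8.55 in Dox minus and Dox plus, and another probe set of Rpf2 differed by -0.69. The TCF motif CTTTGAT was present in 3.06% of measured promoters, in 4.29% of those of genes called higher, 3.57% of those called lower, and in 1 of the 20 matched promoters of the Wnt target list. No match in this window says nothing of distant sites. The E2F motif TTTCCCGC was present in 14.9% of S phase and 20.8% of DNA repair promoters against 2.42% of measured ones. CCAAT was present in 72.4% of G2 and mitosis promoters against 43.1%. It was also in 83.3% of cholesterol and fatty acid synthesis promoters and 76.5% of serine and one-carbon promoters, lists with medians above 0. Both strands were read, and TTTCCCGC can overlap the end of the response element core.

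Antigen presentation and defence were mixed. The interferon-inducible parts of class I presentation were lower, with the peptide transporter Tap1 at 9.45 and 7.25 and Tap2 at 8.83 and 7.06, and the immunoproteasome subunits Psmb8 at 11.63 and 9.27 and Psmb9 at 10.51 and 9.28. The classical heavy chains H2-K1 (-0.55) and H2-D1 (-0.05) and B2m (-0.55) were within 2-fold. H2-Q2 was the largest increase of all, from 3.79 in Dox minus to 13.01 in Dox plus, at least 8.01. It read 11.05 and 9.72 on the GFP arrays, so Dox minus was the array apart. H2-T3 (6.89 and 9.64, with a second probe set at 0.13) and H2-Bl (8.14 and 9.97) were also higher. Class I genes are closely alike and vary between mouse strains, and probes can be shared among them. Of 6 class II genes only H2-Ab1 (1.43) passed 2-fold, with Cd74 at 0.90 and H2-Ea at -0.96.

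Secreted defence proteins were lower in part. The antibacterial lectin Reg3g read 12.54 in Dox minus and 10.37 in Dox plus, Reg3b 14.35 and 13.23, and the chemokine Ccl6 12.59 and 9.74. The inflammatory caspase Casp4 read 9.67 and 7.35, and Gsdmc2 14.12 and 12.21. Of 26 measured defence genes 8 were lower and 2 higher. The higher pair were chemokines, Ccl25, normally typical of the small intestine (6.98 and 9.35), and Ccl20 (6.46 and 7.79).

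Genes of hormone-making cells were lower with few exceptions. In the enteroendocrine list 12 of 15 measured members were called lower, and the median was -1.69. In crypt extracts such as these, fewer cells of a type and less RNA per cell cannot be told apart. The granule protein Chga read 9.20 and 6.20, the colonic hormone Insl5 9.92 and 6.26, Nts 11.47 and 9.07, and Pyy 10.08 and 8.69. Tph1, the enzyme of serotonin synthesis, read 8.14 and 3.36. The lineage factors Neurod1 (8.82 and 7.12) and Insm1 (7.69 and 6.45) were lower with them. Sct, the hormone secretin, was the exception (9.04 and 10.37), and Ddc, which acts in serotonin synthesis but is also found in other epithelial cells, was level (11.55 and 11.57). Islet amyloid polypeptide Iapp, another peptide hormone, read 8.14 and 3.28.

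Goblet cell genes were level or lower. The main mucin Muc2 read 14.74 and 14.29, Tff3 14.89 and 14.87, Fcgbp 13.77 and 13.69, Spink4 14.87 and 14.88, and the fate factor Atoh1 10.72 on both arrays. Of 25 goblet genes 22 were below 0 and 7 were called lower, and the median was -0.51. The lower ones were Ang4 (12.99 and 9.69), Muc4 (12.42 and 10.51), Retnlb (14.62 and 12.74), St3gal6 (11.05 and 9.45), Clca1 (-1.54), Tpsg1 (9.35 and 7.98) and Rep15 (10.45 and 9.44). Ang4 and Retnlb are antimicrobial as well as secreted by goblet cells, and Ang4 read 4.32 and 6.77 on the GFP arrays. Gfi1, which keeps secretory cells from the endocrine fate, read 7.93 and 5.74, and Spdef, which matures goblet cells, 10.52 and 9.53. Markers of deep crypt secretory and Paneth cells went both ways. Of 10 measured deep crypt secretory genes 2 were called higher and 2 lower, and of 6 Paneth genes 2 higher and 3 lower. Mmp7 (1.91) and Pla2g2a (2.11), in both lists, were higher, while Ang4 and the lectin Itln1 (13.63 and 10.94), also in both, were lower. Reg4 differed by 0.37 (14.48 and 14.85), Kit by -0.62 and Lyz1 by 0.47. Of 7 measured tuft cell genes 0 passed 2-fold.

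The enzymes that build and cap mucin sugars were lower in part. Of 37 measured 32 were below 0, 12 at least 2-fold lower and 0 higher, with a median of -0.53. The sialyltransferase St6galnac1, which makes sialyl-Tn, read 9.22 and 3.11, and B3gnt6, which starts core 3 glycans of colonic mucin, 8.20 and 3.81. Both were also under 5 on the GFP arrays, at 3.02 and 2.97 for St6galnac1 and 2.45 and 2.38 for B3gnt6, so Dox minus was the only array to detect them. Gcnt1, the core 2 enzyme, read 10.23 and 7.51, and B3gnt7, which extends sulfated chains, 10.75 and 8.40. Galnt4 (0.07) and B4galnt2 (0.08) were level, and St6galnac2 (0.87) was the highest. The folding and export machinery of the endoplasmic reticulum, which secretory cells rely on, was level with a median of -0.01, apart from Kdelr3 (8.70 and 6.68) and Pdia4 (9.48 and 8.42).

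Absorptive cells differed little in their identity genes. Of 29 measured colonocyte genes 24 were below 0, but only the sodium-proton exchanger Slc9a2 passed 2-fold (12.65 and 11.54), and the median was -0.43. The chloride-bicarbonate exchanger Slc26a3 read 14.17 and 13.60 and the water channel Aqp8 13.44 and 13.26. Brush border genes had a median of -0.29, with 30 of 35 below 0. Selected transporters differed more. The magnesium channel Trpm6 read 10.98 and 9.20, the phosphate transporters Slc34a2 8.34 and 6.11 and Slc20a1 13.08 and 11.63, the butyrate transporter Slc5a8 12.53 and 10.83, and the peptide transporter Slc15a1 10.78 and 7.57. Higher were the calcium channel Trpv6 (10.28 and 11.46), the anion channel Best2 (7.56 and 9.31) and Slc30a10 (10.64 and 12.24).

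Of 28 junction genes 4 were called lower (14.3%, against 5.33% over all genes) and 1 higher (3.57%, against 6.96%). Cldn8 (11.53 and 9.54) and Cldn23 (12.10 and 10.40), sealing claudins of the surface, and Marveld2 (10.54 and 9.45) were lower, Cldn4 (8.62 and 10.16) was higher, and Cldn7 (0.04), Cldn3 (0.04) and Cdh1 (-0.19) were level. Krt7, a keratin scarce in normal colon, read 11.01 and 12.38, next to a level Krt8 (0.10) and Krt19 (0.12). Genes noted in regenerating or fetal-like gut were divided, with Sprr1a (8.35 and 10.79), Cldn4, Krt7 and Il1rn (7.40 and 8.76) higher, and Clu (7.77 and 5.71) and Gja1 (7.49 and 6.11) lower. Detoxifying enzymes had a median of -0.09, with Gsta3 (7.96 and 9.59) and the pump Abcc4 (6.78 and 7.98) higher. Of the 49 measured 5 were lower, or 10.2% against 5.33% over all genes.

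Other signalling pathways showed large differences of single genes. In the BMP pathway, which opposes Wnt towards the crypt top, the ligand Bmp2 read 10.25 in Dox minus and 7.44 in Dox plus, whereas the BMP-responsive Id3 (9.79 and 10.97) was higher, with Id1 (0.76) and Id2 (0.93) within 2-fold. In the Notch pathway the target Hes1 read 8.70 and 9.99, and the receptor modifier Lfng was under 5 in Dox minus (4.65) and read 7.05 in Dox plus. Dll1 (-0.12) and Jag1 (-0.04), both ligands, were level on their strongest probe sets.

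In the EGF receptor family 2 of 20 genes, both ligands, were called higher and 5 lower. Epiregulin, Ereg, read 7.15 and 9.66, and betacellulin, Btc, 6.49 and 7.68. The feedback genes Spry4 (7.25 and 5.23), Dusp6 (10.87 and 9.55) and Errfi1 (10.57 and 9.36), which are induced by the receptor's own signal and restrain it, were lower, as was Lrig2 (7.21 and 6.18). Egfr itself was level (-0.06). Immediate-early genes had a median of -0.18. Of 24 measured 3 were called lower (12.5%, against 5.33% over all genes) and 1 higher (4.17%, against 6.96%). Nr4a1 (7.53 and 4.95), Nr4a2 (6.69 and 5.36, another probe set at -0.07) and Atf3 (8.45 and 6.93) were lower, and Ier3 (8.06 and 11.07) was higher.

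Of 19 ATF4 response genes 8 were called higher and 2 lower. The amino acid genes Psat1, Phgdh and Mthfd2 given above, the transporter Slc7a5 (5.95 and 7.80), asparagine synthetase Asns (10.45 and 11.51) the growth inhibitor Ddit4 (8.95 and 10.25) and Atf5 (5.59 and 7.58) were among the higher ones, and Slc3a2, the partner of Slc7a5, differed by -0.10. The stress genes Nupr1 (13.51 and 11.16) and Atf3 were lower, Ddit3 differed by -0.56, and Atf4 itself by -0.84 or, on another probe set, by 0.14. Heat shock genes had a median of 0.48, with the chaperone cofactors Hsph1 (10.40 and 12.04) and Hspa4l (8.60 and 9.96) higher and Dnajb4 (9.86 and 8.46) lower.

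Posterior identity genes went both ways. Hoxa13 (5.89 and 7.47) and Hoxb9 (8.05 and 9.57) were higher, and Hoxb13 (10.45 and 9.24), a marker of the distal colon, and Hoxd13 (7.95 and 4.43) lower, while Cdx1 (0.39) and Hnf4a (-0.19) were nearly level. Among imprinted genes, whose expression depends on the parent of origin, 4 of 15 were past 2-fold lower. The non-coding RNA Meg3 read 10.58 and 4.56 and its neighbour Dlk1 7.47 and 2.14. Rian, of the same imprinted cluster, read 5.41 and 2.47, which is too near 5 to be called. Plagl1 read 7.89 and 4.96, and Ndn 6.32 and 4.84. These 5 genes were under 5 on both GFP arrays as well, so Dox minus was the only array to detect them. Other probe sets of Meg3 gave differences down to -0.04 in size.

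Other large differences lie in single genes. Higher in Dox plus were the mitochondrial import chaperone Timm9 (6.95 and 10.18), the phospholipases Pla2g12a (5.06 and 8.59) and Pla2g5 (3.36), the atrial myosin light chain Myl7 (7.05 and 10.01), Tex15 (5.53 and 8.33), known from germ cells, and Miga1 (2.70). Pla2g5 read 9.29 and 9.74 on the GFP arrays. Under 5 in Dox minus and on both GFP arrays were Neto2 (8.62 in Dox plus), the retinol dehydrogenase Rdh1 (8.20), the chemokine receptor Ackr3 (7.86) and the heme oxygenase Hmox1 (7.72), and Igfbp4, an inhibitor of insulin-like growth factors, at 9.82, though one of its 4 probe sets differed by only 0.35. Lower were Ly6g6c (10.20 and 6.24, another probe set at -0.63), Igsf23 (8.99 and 5.20, another probe set at -0.08), the lipase Pnliprp2 (8.78 and 3.44), the Hippo kinase Lats2 (8.47 and 4.87, another probe set at -0.04), Pla2g4c (8.43 and 2.96) and Rbp4 (8.46 and 4.19).

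Over all called genes the 4 arrays divided as follows. Of the 664 higher genes 266 were at their highest in Dox plus by 2-fold or more over the other 3 arrays, and 160 at their lowest in Dox minus by 2-fold or more. Of the 509 lower genes 204 were highest in Dox minus and 184 lowest in Dox plus by that margin. Of the lower genes 39 were under 5 on all arrays but Dox minus, and of the higher genes 40 were under 5 on all arrays but Dox plus. Among the 396 called genes with several measured probe sets, all probe sets had the same direction in 358 and all were past 2-fold in 192.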

How the data were processed

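Total RNA of crypt cells was extracted with Trizol and hybridised as biotin-labelled cRNA, per the labels' protocols. The authors deposited log2 values per probe set, for which the submitters' processing notes name GCRMA, and the sources used here do not say which arrays were normalized together. Of 45101 probe sets, 34958 carried 1 gene symbol, 932 several and 9211 none. The probe set with the highest mean over both arrays stood for its gene. Levels under 5 were set to 5, the difference Dox plus minus Dox minus was taken, and a difference of 1 or more in size, which is 2-fold, was called. With 1 array per group there is no test. Python 3.11.15, pandas 2.3.3, numpy 2.4.6, statsmodels 0.14.6 (loess) and matplotlib 3.10.9 were used, and the steps were tested on simulated data.

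Named were the genes of a short set list, the 30 largest differences and the 15 highest bounds in each direction whose probe sets shared a direction, the 20 most abundant genes, and from each of 77 lists the 8 largest differences, the member nearest 0 and members past 2-fold against the list median. Other named list members, such as Gsk3b, Tff3, Npm1 and Ifnar1, were chosen after their values were seen. The members and lists were chosen with earlier results of these data known. Alternatives were other floors, quantile and loess normalization, the mean of probe sets, unique probe sets only and a 4-fold threshold.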

Additional observations from a re-analysis of the deposited data

How the results depend on the processing

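The counts of 664 higher and 509 lower genes ranged from 535 to 752 and from 419 to 590 under other floors, normalizations and choices of probe sets. Quantile normalization gave 535 and 590, so that lower genes outnumbered higher ones there, and loess gave 628 and 534. A 4-fold threshold left 86 and 132. Of the named genes with a value under every alternative, 383 moved by less than the 0.32 between probe sets throughout, 130 moved by more in at least 1, and 4 reversed. Other named genes had no value under some alternative, mostly the choice of unique probe sets. Of these 117 moved by less than 0.32 where they had a value, and 40 by more. Trim34a changed from 1.27 to -0.12 with the mean of probe sets, and to -1.51 without probe sets whose suffix marks shared sequence. Under the latter choice Rpf2 changed from 1.80 to -0.69, Hars2 from 1.32 to -0.14 and Mrpl21 from 1.13 to -0.013, since another probe set then stood for the gene. Of the list medians with a value under every alternative, 65 moved by less than 0.32 throughout and 8 by more in at least 1, and 3 lists had no value under some. No paired analysis was possible because each group had 1 array. Signal near background limits the genes under 5, whose differences are bounds.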

Other observations

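Probe sets with no gene symbol or with several were not part of the comparison. Array controls aside, 1601 of these reached 5 on at least 1 of the Dox arrays. Of the 1601, 96 were at least 2-fold higher and 125 at least 2-fold lower in Dox plus, and their differences ran from -9.75 to 5.31.

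Probe sets of the same gene disagreed in some cases. Uqcr10, a respiratory chain subunit, differed by 0.53 on its strongest probe set and by -4.95 on another. The Max partner Mga differed by 0.07 and 2.16 on its lowest and highest probe sets, and the mucus protein gene Clca1 by -4.43 and -1.54.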
